A study of Mus musculus with 6 samples.

Results

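Presentation of antigen on MHC class II was described by 10 genes of the deposited expression table, chosen by their symbols: *H2-Aa*, *H2-Ab1*, *H2-Eb1*, *Cd74*, *H2-DMa*, *H2-DMb1*, *H2-DMb2*, *H2-Oa*, *H2-Ob* and *Ciita*. All 10 were among its 21358 entries. RNA came from whole tumors of C57/BL6 mice carrying B16F10, a melanoma line of the same strain that was implanted under the skin. All mice were irradiated to deplete lymphocytes and then given adoptive cell transfer (ACT) of peptide-activated splenocytes of pmel-1 mice, whose CD8 T cells carry a transgenic receptor for the melanoma antigen gp100. The comparison was between 3 tumors of mice given ACT + IL-2 and 3 tumors of mice given ACT + NKTR-214, a pegylated IL-2, all taken at day 12, with 1 library per tumor. Days count from the cell transfer, and both drugs had been given again before day 12. The groups also differed in dose, route and schedule. NKTR-214 was injected into a vein on a single day per cycle, and IL-2 into the peritoneum on consecutive days. Drug and regimen cannot be told apart. The mice were young females.

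MHC class II molecules show peptides from endocytosed proteins to CD4 T cells. They are pairs of an alpha and a beta chain, made mostly by dendritic cells, macrophages and B cells, and are held by the invariant chain (*Cd74*) until a lysosomal protease trims it away. The DM molecule then exchanges the remaining invariant chain fragment for peptide, and the DO molecule binds DM and restrains it, chiefly in B cells and some dendritic cells. CIITA, encoded by *Ciita*, is the co-activator that switches these genes on: it does not bind DNA itself but docks on proteins that sit on a conserved X box and Y box in their promoters.

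Promoter windows are shown for the members in which both motifs searched were found, since the boxes are the shared feature through which CIITA acts. In RefSeq promoters of GRCm38.p6, 7 of the 10 members had an entry, with 2 entries for *H2-DMa*; *H2-Ab1*, *Cd74* and *Ciita* had none. The 250 bases before each start were searched on both strands for GCAAC, from the core of the X box, and TGATTGG, the Y box, which contains an inverted CCAAT and is the kind of site that NF-Y binds; the motifs do not overlap each other. In capitals are GCAAC and TGATTGG, with each window printed 5′ to 3′ on the strand of its gene.
*H2-Aa*, chr17:34287861-34287917, minus strand: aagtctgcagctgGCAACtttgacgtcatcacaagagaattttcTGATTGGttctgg
*H2-Eb1*, chr17:34305762-34305818, plus strand: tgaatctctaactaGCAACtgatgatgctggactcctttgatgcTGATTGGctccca
*H2-Oa*, chr17:34092290-34092346, plus strand: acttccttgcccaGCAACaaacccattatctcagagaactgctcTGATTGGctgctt
*H2-Ob*, chr17:34238802-34238858, plus strand: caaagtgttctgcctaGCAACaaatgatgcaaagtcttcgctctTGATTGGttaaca

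In these 4 windows 26, 25, 26 and 23 bases lay between the motifs, and TGATTGG began 50, 61, 45 and 59 bases before the RefSeq start. *H2-DMb1* and *H2-DMb2* held TGATTGG 63 and 92 bases before the start but not the exact letters GCAAC, and the windows around it were identical at 51 of 57 positions, TGATTGG included. Neither *H2-DMa* entry held TGATTGG. Over all 32851 promoters of the same length, TGATTGG was found in 7.23%, GCAAC in 29.9%, and GCAAC followed by TGATTGG after 20 to 40 bases in 54, or 0.164%. An X box with other letters is missed by this search. A match describes the letters and does not show that a factor was bound in these tumors.

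The values are FPKM (fragments per kilobase of exon, corrected for library size), which allow levels to be compared between genes. Whole-read steps in the low values put the libraries at about 20880000 to 24650000 mapped reads. Groups were compared with limma on log2(FPKM + 1) over the 14172 genes that averaged 0.1 FPKM or more, and a gene was called at a Benjamini-Hochberg adjusted p under 0.05. Fold changes are ACT + NKTR-214 over ACT + IL-2. On this log2 scale the change of genes at a few FPKM or less is understated, most of all below about 1 FPKM. An exact two-sided permutation test of 3 against 3 tumors cannot go below p = 0.1, so ratios between genes are given per tumor without a test.

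Class II genes were higher in the ACT + NKTR-214 tumors, except the gene for their own co-activator. With limma and Benjamini-Hochberg adjustment, 9 of the 10 members were higher and 0 were lower, with the same counts of 9 and 0 at an unadjusted p under 0.05, and *Ciita* was not called. Without moderation of the variances limma called 0 members (Benjamini-Hochberg adjusted p of 0.0597 or more), with 8 higher at an unadjusted p under 0.05, and it then called 0 genes of each gene list described later as well. Of all genes tested, 20.7% were called higher and 8.28% lower. Of all calls 71.5% were thus higher, a share that fell to 49.0% after 75th percentile scaling and 37.3% after quantile normalization. The median log2 fold change of the members was 1.17, against 0.045 for all genes. In 8 members, all but *Ciita* and *H2-Ob*, the 3 ACT + NKTR-214 tumors lay above the 3 ACT + IL-2 tumors, a separation seen in 27.1% of all genes tested. In whole tumors, more cells of a type and more RNA per cell cannot be told apart.

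The order of the members by FPKM was almost the same in every tumor. *Cd74* was the highest, followed by *H2-Aa*, *H2-Ab1*, *H2-Eb1*, *H2-DMb1*, *H2-DMa*, *Ciita*, *H2-DMb2*, *H2-Oa* and *H2-Ob*. Each gene was above the next in 6 of 6 tumors, except that *H2-Oa* was above *H2-Ob* in 5 of 6. Over the 6 tumors the means ran from 1226 FPKM for *Cd74* to 0.651 FPKM for *H2-Ob*. The plot of the members by tumor shows this ladder, with the classical chains and *Cd74* at 106 to 2014 FPKM, *H2-DMa* and *H2-DMb1* at 26.8 to 72.6 FPKM, and *H2-DMb2*, *H2-Oa* and *H2-Ob* at 0.229 to 6.70 FPKM.

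**Figure D1:**
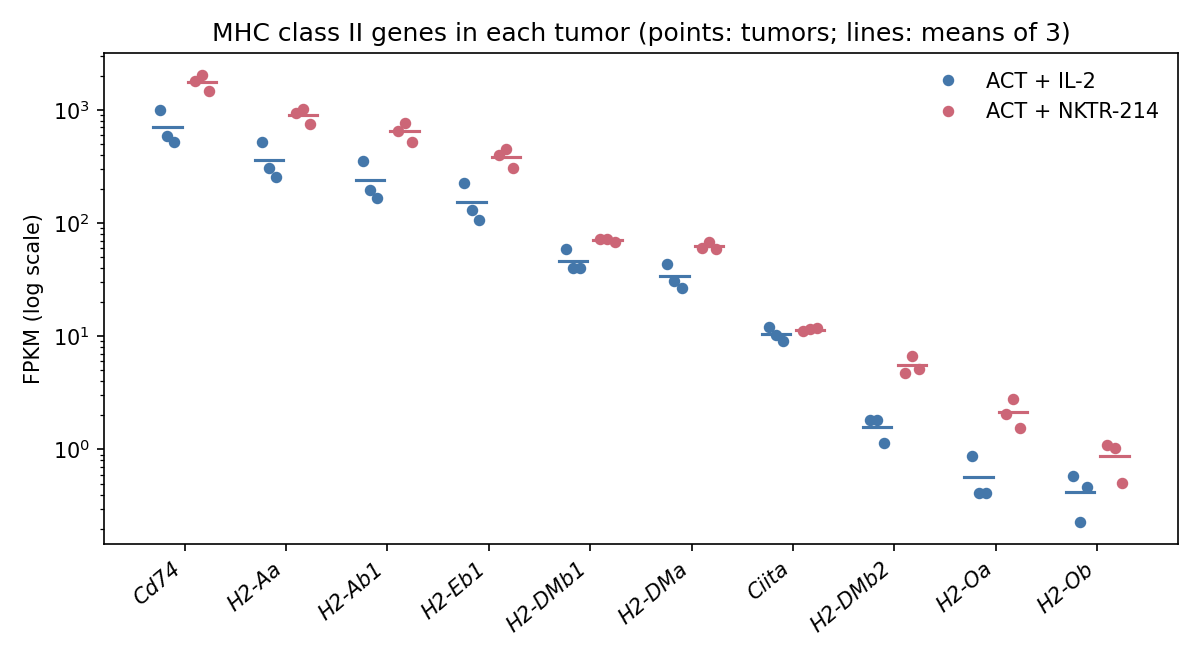
FPKM of the 10 members on a log axis, with 1 point per tumor and a line at the mean of the 3 tumors of each group. The groups are apart for every gene but *Ciita* and *H2-Ob*, and the *Ciita* values, between 9.00 and 12.2, mix.

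*H2-Aa* encodes the alpha chain of I-A, and *H2-Ab1* its beta chain. *H2-Aa* (chr17:34282744-34287823, minus strand, GRCm38) read 514, 305 and 255 FPKM in the ACT + IL-2 tumors, here and later in the order of their replicate numbers, and 934, 1010 and 755 FPKM in the ACT + NKTR-214 tumors. The lowest ACT + NKTR-214 tumor was well above the highest ACT + IL-2 tumor. The group means were 358 ± 137 and 900 ± 131 FPKM (SD, n = 3 each), a fold of 2.51, and limma gave a log2 fold change of 1.38 (SE 0.29) at a Benjamini-Hochberg adjusted p of 0.00168. After quantile normalization the log2 fold change was 0.815 (limma, Benjamini-Hochberg adjusted p = 0.0273).

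*H2-Ab1* (chr17:34257689-34269419) followed the alpha chain, with 356, 197 and 165 FPKM against 656, 770 and 518 FPKM. Its means of 240 ± 102 and 648 ± 126 FPKM (SD, n = 3 each) differed 2.71-fold, and its log2 fold change of 1.49 (SE 0.28; limma, Benjamini-Hochberg adjusted p = 0.000823) was the highest among the members on this scale. With a pseudocount of 0.1 it was 1.498, below *H2-Oa* at 1.78 and *H2-DMb2* at 1.75. After quantile normalization it was 1.09, below *H2-Eb1* at 1.12 and *H2-DMb2* at 1.11. Without ACT + IL-2 replicate 2 it was 1.395, just below *H2-DMb2* at 1.404. *H2-Eb1*, the beta chain of I-E (chr17:34305867-34316674), had 227, 131 and 106 FPKM against 400, 451 and 305 FPKM. The groups again did not overlap, the fold of means was 2.49, and the log2 fold change was 1.37 (SE 0.26; limma, Benjamini-Hochberg adjusted p = 0.000941). The entry for the I-E alpha chain, *H2-Ea-ps*, is a pseudogene in this strain, which makes no I-E on the cell surface. It was listed at 0 in 5 tumors and at 0.0537 FPKM in ACT + NKTR-214 replicate 3, so the *H2-Eb1* RNA had no partner RNA at a level near its own.

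*Cd74* encodes the invariant chain, the chaperone of the class II chains and also a surface receptor for the cytokine MIF. It read 994, 591 and 522 FPKM in ACT + IL-2 and 1782, 2014 and 1453 FPKM in ACT + NKTR-214. The groups did not overlap, with means of 702 ± 255 and 1750 ± 282 FPKM (SD, n = 3 each). The fold of 2.49 was close to that of the classical chains, and the log2 fold change was 1.36 (SE 0.32; limma, Benjamini-Hochberg adjusted p = 0.00482). That call was lost when no minimum level was set for the genes tested (limma, Benjamini-Hochberg adjusted p = 0.0883).

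The chains kept nearly fixed proportions while their level changed. *Cd74* was 1.91 to 2.05 times *H2-Aa* in all 6 tumors, with overlapping groups. *H2-Aa* was 1.44 to 1.55 times *H2-Ab1* in ACT + IL-2 and 1.31 to 1.46 times in ACT + NKTR-214, again with overlap. *H2-Ab1* over *H2-Eb1* was 1.51 to 1.57 in ACT + IL-2 and 1.64 to 1.71 in ACT + NKTR-214, a small shift without overlap.

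In all 4 of these genes ACT + IL-2 replicate 1 was the highest of its group, and ACT + NKTR-214 replicate 3 the lowest of its own. Replicate 1 was also the ACT + IL-2 tumor with the highest summed FPKM of 8 macrophage and monocyte markers, 385 against 180 and 143, and ACT + NKTR-214 replicate 3 had the lowest of its group, 617 against 751 and 1050. Both tumors were likewise the extremes for the dendritic cell sum, 16.7 against 10.1 and 10.1, then 27.9 against 35.3 and 44.5. The same held for the T cell sum, 12.2 against 5.59 and 5.25, then 65.5 against 125 and 140. It also held for the leukocyte gene *Ptprc*, 17.7 against 8.79 and 7.57, then 40.5 against 66.5 and 74.6. For the low B cell sum it held in ACT + IL-2 only. The part of any of these cells in the class II values was not tested. Leaving out each tumor in turn kept the 4 genes above the threshold in 6 of 6 fits, with log2 fold changes from 1.17 to 1.67 for *H2-Aa* and from 1.27 to 1.82 for *H2-Ab1*.

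*H2-DMa* and *H2-DMb1* encode the usual alpha and beta chains of DM, the peptide exchange factor. *H2-DMa* (chr17:34119541-34139101) read 43.7, 30.8 and 26.8 FPKM in ACT + IL-2 and 60.6, 68.2 and 58.5 FPKM in ACT + NKTR-214. Its groups did not overlap, and its means of 33.8 ± 8.82 and 62.4 ± 5.15 FPKM (SD, n = 3 each) gave a fold of 1.85. The log2 fold change was 0.89 (SE 0.18; limma, Benjamini-Hochberg adjusted p = 0.00116). Its exons overlap by 360 bases those of *Brd2* on the other strand, which read 38.9 to 55.1 FPKM and was not called. *H2-DMb1* (chr17:34153072-34160230) read 58.9, 40.2 and 39.9 FPKM against 72.0, 72.6 and 67.4 FPKM, a fold of 1.53 without overlap. Its log2 fold change of 0.62 (SE 0.17; limma, Benjamini-Hochberg adjusted p = 0.0117) lost its call without ACT + IL-2 replicate 2 (limma, Benjamini-Hochberg adjusted p = 0.0552) or replicate 3 (0.0773).

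*H2-DMb2*, a second DM beta chain encoded next to *H2-DMb1* (chr17:34143307-34151555), had a larger fold than its neighbour. It read 1.80, 1.83 and 1.15 FPKM in ACT + IL-2 and 4.77, 6.70 and 5.17 FPKM in ACT + NKTR-214, so that the lowest ACT + NKTR-214 tumor was above every ACT + IL-2 tumor. Its means of 1.59 ± 0.384 and 5.55 ± 1.02 FPKM (SD, n = 3 each) gave a fold of 3.48, and its log2 fold change of 1.34 (SE 0.17) had the smallest adjusted p of the members (limma, Benjamini-Hochberg, 2.01e-05). *H2-DMb1* was 22.0 to 34.6 times *H2-DMb2* in ACT + IL-2 and 10.8 to 15.1 times in ACT + NKTR-214, without overlap. Part of their sequence is the same: 22.7% of the 50-base stretches of the *H2-DMb1* exons and 25.9% of those of *H2-DMb2* occur in another gene, the other of the pair among them, and reads from these stretches cannot be assigned to one gene. Within the DM pair, *H2-DMb1* over *H2-DMa* went from 1.30 to 1.49 in ACT + IL-2 to between 1.06 and 1.19 in ACT + NKTR-214.

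*H2-Oa* and *H2-Ob*, the alpha and beta chains of DO, were the lowest members. *H2-Oa* (chr17:34092340-34095234) read 0.877, 0.416 and 0.409 FPKM in ACT + IL-2 and 2.04, 2.81 and 1.56 FPKM in ACT + NKTR-214, with no overlap. Its fold of means, 3.77, was the highest of the members, although on the log2(FPKM + 1) scale it was 1.00 (SE 0.16; limma, Benjamini-Hochberg adjusted p = 0.000174). From the FPKM steps these values were estimated as 22, 10 and 9 reads against 53, 72 and 39 reads, with a length of 1052 bases that was fitted so that all came within 0.05 of a whole number. The nearest annotated transcript is 1088 bases long, so the reads are approximate. The exact 95% Poisson interval of 9 reads was 4.12 to 17.1, which covers counting error only, and that of 39 reads was 27.7 to 53.3. Exons of *H2-Oa* overlap those of *BC051537* on the other strand by 232 bases, and the sources used here do not say whether strand was used in counting.

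*H2-Ob* (chr17:34238903-34254414) read 0.581, 0.229 and 0.466 FPKM against 1.09, 1.03 and 0.505 FPKM, from 37, 14 and 26 reads against 72, 67 and 32 reads. ACT + NKTR-214 replicate 3 was below ACT + IL-2 replicate 1, so the groups overlapped. The fold of means was 2.06 and the log2 fold change 0.39 (SE 0.13; limma, Benjamini-Hochberg adjusted p = 0.0409). That call was lost without ACT + IL-2 replicate 2 (limma, Benjamini-Hochberg adjusted p = 0.213), ACT + NKTR-214 replicate 1 (0.118) or ACT + NKTR-214 replicate 2 (0.0584), and with a pseudocount of 0.1 (0.056), 75th percentile scaling (0.0576), no trend (0.0949), no minimum level (0.104) or no moderation (0.232). After quantile normalization the log2 fold change was 0.16 (limma, Benjamini-Hochberg adjusted p = 0.306). *H2-Oa* over *H2-Ob* was 0.879 to 1.81 in ACT + IL-2 and 1.87 to 3.09 in ACT + NKTR-214.

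**Figure D2:**
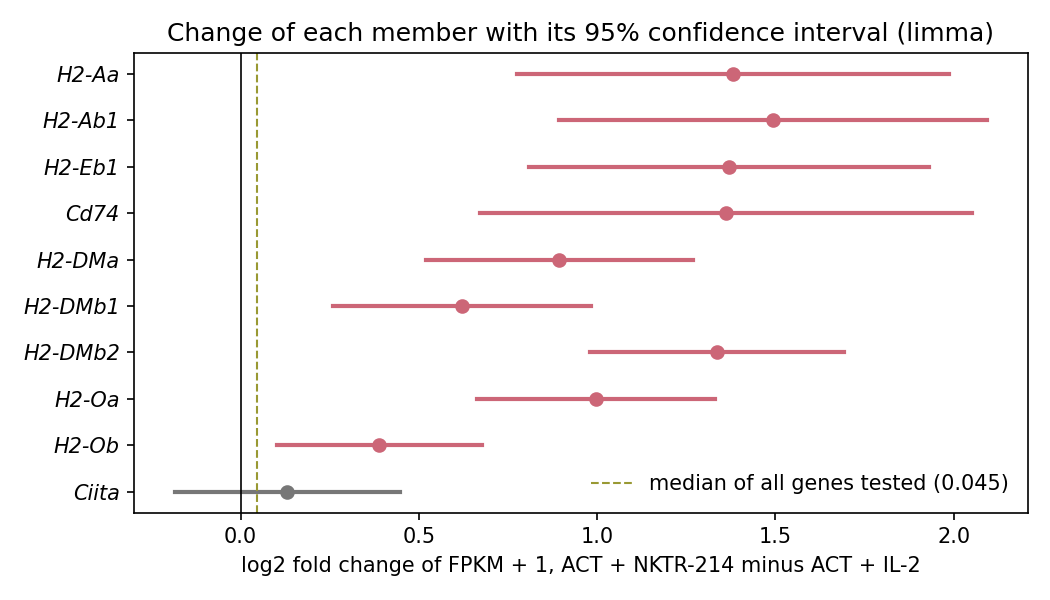
Log2 fold change of FPKM + 1 for each member (point) with its 95% confidence interval from limma (line), members called in red and *Ciita* in grey. The 3 classical chains, *Cd74* and *H2-DMb2* lie between 1.34 and 1.49, *H2-Ob* at 0.39, and the interval of *Ciita*, −0.18 to 0.45, spans 0.

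Set against the classical chains, the accessory chains did not move as 1 group. *H2-Aa* was 9.53 to 11.8 times *H2-DMa* in ACT + IL-2 and 12.9 to 15.4 times in ACT + NKTR-214, without overlap. In the other direction, *H2-Aa* was 586 to 734 times *H2-Oa* in ACT + IL-2 and 359 to 483 times in ACT + NKTR-214, also without overlap. The ratio of *H2-Aa* to *H2-DMb2* (167 to 285, then 146 to 196) and that to *H2-Ob* (548 to 1331, then 855 to 1495) overlapped between groups. The plot of ratios within each tumor shows both shifts. They are in plain FPKM: after quantile normalization the log2 fold changes of *H2-Aa*, 0.815, *H2-DMa*, 0.78, and *H2-Oa*, 0.74, were close. Those of the other classical chains, *H2-Ab1* at 1.09 and *H2-Eb1* at 1.12, stayed higher.

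**Figure D3:**
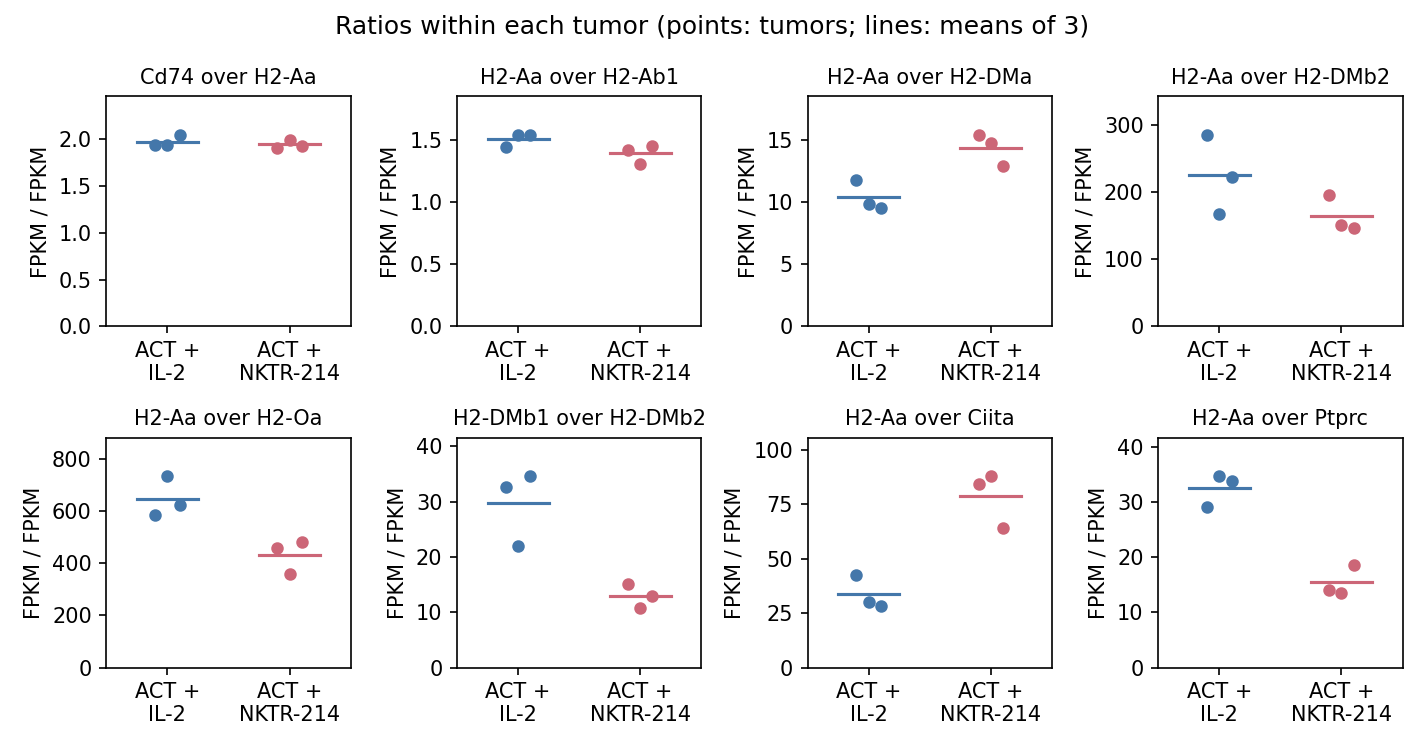
Ratio of the FPKM of 2 genes within each tumor (points) with the mean of the 3 tumors of each group (lines), each panel starting at 0. *Cd74* over *H2-Aa* stays near 2 in all tumors, *H2-Aa* over *H2-DMa* and over *Ciita* is higher in ACT + NKTR-214, and *H2-Aa* over *H2-Oa* and over *Ptprc* is lower.

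Averages over chains depended on scaling and on how low values were treated. The mean log2(FPKM + 1) of the 3 classical chains exceeded that of the 3 DM chains by 4.15, 3.69 and 3.62 in ACT + IL-2 and by 4.41, 4.38 and 4.08 in ACT + NKTR-214, a difference between groups of 0.46 (SE 0.20) with overlap, which was 0.21 after quantile normalization. Against the DO chains the excess was 7.66, 7.25 and 6.85, then 7.96, 7.99 and 7.97, a difference of 0.72 (SE 0.23) without overlap. With a pseudocount of 0.1 in place of 1 this last difference was 0.08, so it rested largely on the pseudocount. The excess of DM over DO chains was higher by 0.26 (SE 0.15) in ACT + NKTR-214, with overlap, but this difference was −0.24 with a pseudocount of 0.1 and −0.23 with FPKM summed over chains.

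*Ciita* (chr16:10480059-10528418) read 12.2, 10.2 and 9.00 FPKM in ACT + IL-2 and 11.1, 11.5 and 11.8 FPKM in ACT + NKTR-214. The highest tumor of all was ACT + IL-2 replicate 1, and the groups overlapped. The means were 10.4 ± 1.60 and 11.5 ± 0.340 FPKM (SD, n = 3 each), and the log2 fold change was 0.13 (SE 0.15; limma, Benjamini-Hochberg adjusted p = 0.554). Its 95% interval, −0.18 to 0.45, ends below the interval of each classical chain, of which the lowest bound was 0.78. It overlaps the intervals of the called members *H2-Ob*, 0.10 to 0.68, and *H2-DMb1*, 0.26 to 0.98. Whether the change of *Ciita* differed from that of any member was not tested. There were 28.4 to 42.3 FPKM of *H2-Aa* for each FPKM of *Ciita* in ACT + IL-2 and 64.1 to 87.9 in ACT + NKTR-214, without overlap. *Ciita* exons overlap by 127 bases those of *Dexi* on the other strand, which read 7.72 to 9.70 FPKM.

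The genes of the DNA-bound proteins on which CIITA docks summed to 43.7 to 54.0 FPKM in ACT + IL-2 and 44.1 to 49.9 FPKM in ACT + NKTR-214. They are the RFX complex at the X box (*Rfx5*, *Rfxap*, *Rfxank*), NF-Y at the Y box (*Nfya*, *Nfyb*, *Nfyc*) and CREB. With limma, 0 of 7 were called in either direction, and at an unadjusted p under 0.05 there were 0 higher and 1 lower. The 1 was *Rfxap*, with 8.08, 5.91 and 7.11 FPKM against 5.39, 5.47 and 4.76 FPKM and a log2 fold change of −0.37 (SE 0.16; limma, Benjamini-Hochberg adjusted p = 0.0938). It was called lower without ACT + IL-2 replicate 2. *Creb1* was at −0.25, *Nfyc* at −0.14, and *Nfyb* and *Rfx5* at 0.10.

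Interferon-gamma is the cytokine best known to turn on *Ciita*, through the receptor chains IFNGR1 and IFNGR2 and the kinases JAK1 and JAK2, with the transcription factor IRF1 acting downstream. Of 8 genes of this route, 5 were higher and 0 lower, with 0 lower by limma at an unadjusted p under 0.05 too and a median log2 fold change of 0.75. *Ifng* read 2.25, 1.05 and 1.46 FPKM against 7.83, 7.32 and 5.57 FPKM, with a log2 fold change of 1.63 (SE 0.18; limma, Benjamini-Hochberg adjusted p = 8.29e-06). *Ifngr1* had 16.7, 9.99 and 9.47 FPKM against 72.6, 81.2 and 43.1 FPKM, with a log2 fold change of 2.35 (SE 0.23; limma, Benjamini-Hochberg adjusted p = 1.93e-06). *Jak1* (0.87), *Jak2* (0.64) and *Socs1* (0.87), a feedback inhibitor of the JAK kinases, were called higher too.

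*Irf1* and *Ifngr2*, named here after their values were seen, were not called. *Irf1* read 83.9, 66.0 and 61.3 FPKM in ACT + IL-2 and 60.3, 62.1 and 74.5 FPKM in ACT + NKTR-214. The groups overlapped, and the log2 fold change was −0.09 (SE 0.17). *Ifngr2* was at 0.26 (SE 0.15). Whether these changes differed from those of *Ifng* and *Ifngr1* was not tested.

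Enzymes that prepare peptides and trim the invariant chain were higher. Of 8 genes, 7 were called higher and 0 lower, with 0 lower by limma at an unadjusted p under 0.05 and a median log2 fold change of 1.37. *Ctss*, the protease that makes the late cuts in the invariant chain in many antigen-presenting cells, read 248, 116 and 96.9 FPKM in ACT + IL-2 and 896, 1268 and 910 FPKM in ACT + NKTR-214. The log2 fold change of 2.83 (SE 0.31; limma, Benjamini-Hochberg adjusted p = 5.21e-06) was above that of any member, and its 95% interval, 2.18 to 3.49, lay above the interval of each member. *Ctsl*, another cathepsin, was at 2.07 (SE 0.20), the asparaginyl endopeptidase *Lgmn* at 1.43 (SE 0.23), the thiol reductase *Ifi30* at 1.41 (SE 0.22) and *Ctsb* at 1.32 (SE 0.24). *Ctsz*, named after its value was seen, missed the threshold with a log2 fold change of 0.56 (limma, Benjamini-Hochberg adjusted p = 0.0587).

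Turnover of surface class II is set in part by the ubiquitin ligase MARCH1, which marks class II for degradation, and by CD83, which opposes it. *March1* read 3.38, 1.55 and 0.993 FPKM against 5.79, 7.53 and 5.29 FPKM, a log2 fold change of 1.34 (SE 0.23; limma, Benjamini-Hochberg adjusted p = 0.000391). *Cd83* had 3.68, 2.12 and 1.90 FPKM against 5.94, 7.50 and 3.72 FPKM, with a log2 fold change of 0.91 (SE 0.22; limma, Benjamini-Hochberg adjusted p = 0.00553). Its lowest ACT + NKTR-214 tumor was barely above the highest ACT + IL-2 tumor, and its call was lost without ACT + IL-2 replicate 2. *March8*, a relative of *March1* with wider expression, was at −0.06 (SE 0.14). The nonclassical gene *H2-Eb2* read 1.33, 0.776 and 0.992 FPKM against 2.20, 1.53 and 2.01 FPKM, with a log2 fold change of 0.52 (SE 0.14; limma, Benjamini-Hochberg adjusted p = 0.0109), a call also lost without that tumor.

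The genes whose course over the 6 tumors was nearest to that of the classical chains and *Cd74* were *Ccl4*, *Fgr*, *Ccl3*, *Nfam1* and *March1*. Nearness was the Euclidean distance between centred log2(FPKM + 1) values among 11549 genes with a mean of at least 1 FPKM, which favours genes with the same size of group difference. The distances were 0.165, 0.182, 0.189, 0.197 and 0.197. *Ccl4* and *Ccl3* encode chemokines made by myeloid and lymphoid cells, and *Fgr* a kinase of the Src family found in myeloid cells. By the same measure, which was centred on the classical chains and *Cd74* themselves, 557 genes were nearer than *H2-Oa*, 564 nearer than *H2-DMb2*, 645 nearer than *H2-DMa*, 1293 nearer than *H2-DMb1*, 2339 nearer than *H2-Ob* and 3810 nearer than *Ciita*. Of the proteases, *Lgmn* had 39 nearer genes and *Ctss*, with its larger change, 4861.

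All 8 macrophage and monocyte markers were called higher, with a median log2 fold change of 1.79, and their summed FPKM was 143 to 385 in ACT + IL-2 and 617 to 1050 in ACT + NKTR-214. Without ACT + IL-2 replicate 2, 5 of the 8 were called, *Adgre1*, *Csf1r* and *Fcgr1* being lost. The monocyte gene *Ly6c2* had the highest change, 3.99 (SE 0.26), followed by *Mrc1* (2.16), *Ccr2* (2.15), *Cd68* (1.91) and *C1qa* (1.67). Of 8 conventional dendritic cell markers 6 were higher, but only *Itgax* and *Batf3*, 2 of 8, without ACT + IL-2 replicate 2. The sum of all 8 was 10.1 to 16.7 in ACT + IL-2 and 27.9 to 44.5 in ACT + NKTR-214. *Itgax* was at 1.65 (SE 0.19), *Batf3* at 1.37 (SE 0.19), *Ccr7* at 1.06 (SE 0.26), *Clec9a* at 0.86 (SE 0.19) and *Xcr1* at 0.78 (SE 0.19). Their folds of means were 3.55, 3.14, 3.08, 2.67 and 2.65 in that order, since the log2 scale used compresses low values. The 2 that were not called, named after their values were seen, were *Zbtb46* at 0.03 (SE 0.15) and *Cd209a* at 0.02 (SE 0.11).

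B cell markers were low in both groups. The sum of 7 genes was 0.950 to 2.09 FPKM in ACT + IL-2 and 0.994 to 1.61 FPKM in ACT + NKTR-214. *Ms4a1* was listed at 0 in 4 of 6 tumors and *Pax5* in 3 of 6, and only *Cd79a*, at 0.155 to 0.571 FPKM, and *Cd79b*, at 0.310 to 1.67 FPKM, were high enough to test, a range that includes the levels of *H2-Ob*. By limma, 0 of the 2 were called, with 0 at an unadjusted p under 0.05, although *Cd79b* was called higher without ACT + IL-2 replicate 1. These low genes were named after their values were seen. Of 4 plasma cell genes, *Sdc1* (0.65) and *Xbp1* (0.92), both also used by other cells, were higher, *Sdc1* not without ACT + IL-2 replicate 2, while *Jchain*, likewise named after its value was seen, was at most 0.0683 FPKM. The 4 T cell markers in the table were all higher, with a summed FPKM of 5.25 to 12.2 against 65.5 to 140. They were led by *Cd3e* (3.53), *Cd8a* (3.38) and *Cd3d* (3.37), with the low gene *Cd4* at 0.64, a fold of means of 2.82. Of 7 melanoma markers 5 were lower and 0 higher by limma (7 and 0 at an unadjusted p under 0.05), with a sum of 5413 to 6933 FPKM against 2664 to 3763 FPKM, led by *Mitf* (−1.91) and *Tyrp1* (−1.08). Only *Mitf* and *Tyr*, 2 of 7, were called lower without ACT + IL-2 replicate 3, ACT + NKTR-214 replicate 1 or ACT + NKTR-214 replicate 2. Every tumor thus carried its labelled melanoma genes, and the part of these cell types in the class II values was not tested.

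The level of *H2-Aa* was set against 4 of these genes within each tumor. *H2-Aa* was 13.3 to 20.5 times *Csf1r*, the macrophage growth factor receptor, in ACT + IL-2 and 12.1 to 16.1 times in ACT + NKTR-214, with overlap. For each FPKM of *Itgax*, the integrin CD11c, there were 72.8 to 82.8 FPKM of *H2-Aa* in ACT + IL-2 and 52.0 to 59.3 in ACT + NKTR-214, without overlap. *H2-Aa* over *Cd68* went from 6.71 to 8.56 down to between 4.41 and 5.89. Against the common leukocyte gene *Ptprc*, there were 29.0 to 34.7 FPKM of *H2-Aa* per FPKM in ACT + IL-2 and 13.5 to 18.7 in ACT + NKTR-214. The direction depends on the gene chosen. All 4 had a fold of means above the 2.51 of *H2-Aa*: *Csf1r* 2.88, *Cd68* 3.63, *Itgax* 3.55 and *Ptprc* 5.33. In the macrophage and dendritic cell lists, *Adgre1* (1.84), *Fcgr1* (2.21), *Flt3* (2.34), *Zbtb46* (1.04) and *Cd209a* (1.05) were below it. The other genes of these lists were above it.

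**Figure D4:**
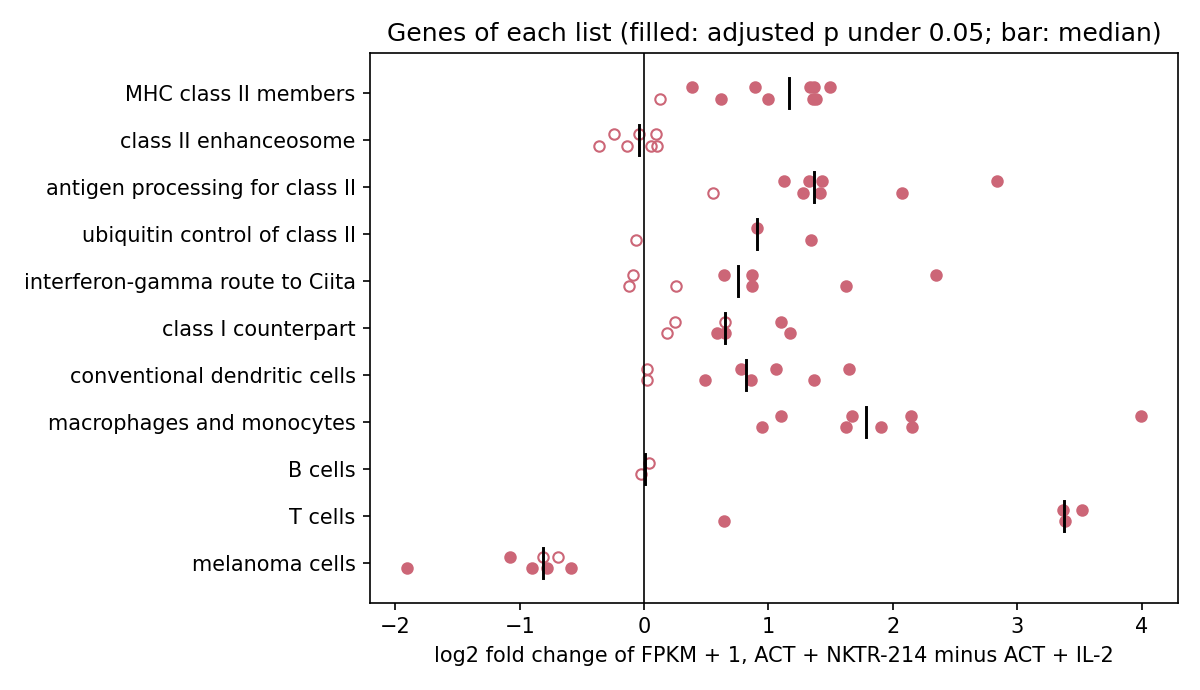
Log2 fold change of FPKM + 1 for the tested genes of each list (1 point per gene, filled where the adjusted p from limma was under 0.05, bar at the median). The class II members centre on 1.17 and their enhanceosome, the DNA-bound complex on which CIITA docks, on −0.04, while macrophage and monocyte markers centre on 1.79, B cell markers on 0.01 and melanoma markers on −0.82.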

How the data were processed

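Total RNA of whole tumors was sequenced by the authors in single-end libraries with reads of 50 bases. Alignment to GRCm38 was done with HISAT2 2.0.4 and gene counting with HTSeq, and the deposited values are linear FPKM for each tumor. No scaling beyond FPKM is stated. The values of 2 genes in the lists are not reported here. Tumors were grouped by their labels, and the 3 per group are separate mice. The members and gene lists were chosen with earlier results of these data known. Named genes are all members and, per list, up to 5 by absolute log2 fold change with a mean of at least 1 FPKM or a call. Any other list gene with a value was named after its values were seen, whether or not this is said beside it.

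Values were taken as log2(FPKM + 1) and the groups were fitted by limma 3.58.1 under R 4.3.3 (lmFit, eBayes with a trend), with Benjamini-Hochberg adjustment over the 14172 genes that averaged 0.1 FPKM or more. The fit was tested on simulated data. Library sizes were estimated from single-transcript genes whose FPKM are multiples of 1 read, of which 67.1 to 70.8% came within 0.1 of whole reads, and FPKM values summed to between 176420 and 246514 per tumor. Gene positions and exon overlaps are those of GENCODE vM21, and promoter sequences those of RefSeq. Python 3.11.15 with pandas 2.3.3 was used for the tables.

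The fit was repeated with a pseudocount of 0.1, a minimum level of 1 FPKM or none, 75th percentile scaling, quantile normalization, no trend, no moderation of variances, the replicate number as a block, and each tumor left out.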

Additional observations from a re-analysis of the deposited data

How the results depend on the processing

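All 9 called members kept a higher level in ACT + NKTR-214 under every alternative that could be run on them, and *Ciita* was never called, with a log2 fold change of 0.02 to 0.24. Calls were lost for *H2-Ob* under 9 of 13 alternatives (limma, Benjamini-Hochberg adjusted p 0.056 to 0.306), for *H2-DMb1* without ACT + IL-2 replicate 2 or 3 and for *Cd74* with no minimum level. A minimum of 1 FPKM left *H2-Ob* untested. Without moderation of the variances limma called 0 members (Benjamini-Hochberg adjusted p of 0.0597 or more), with 8 at an unadjusted p under 0.05, and 101 of all genes higher and 27 lower. Genes called lower numbered 3497 after 75th percentile scaling and 4525 after quantile normalization, and the share of calls that were higher was 71.5%, 49.0% and 37.3% in the reported, percentile and quantile fits; quantile normalization shifted the all-gene median by −0.14 on the log2 scale. Classical over DM chains differed between groups by 0.21 after quantile normalization. Classical over DO chains differed by 0.082 with a pseudocount of 0.1 and 0.41 with summed FPKM, and DM over DO chains reversed to −0.24 and −0.23 with these. A low FPKM is compressed by a pseudocount of 1.

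Leaving out each tumor in turn gave 7 to 9 members higher, 2005 to 3476 genes higher and 636 to 1996 lower (1996 without ACT + IL-2 replicate 2, 636 without its replicate 3, 680 without ACT + NKTR-214 replicate 2), with the share higher at 50.1% without ACT + IL-2 replicate 2. Differences were then 0.36 to 0.63 for classical over DM, 0.52 to 0.93 for classical over DO and 0.15 to 0.33 for DM over DO chains. With a replicate block 9 members, 3090 genes higher and 1227 lower were called, so no member's call changed. The labels do not say that the numbers pair the tumors. Deviations of same-numbered tumors correlated at −0.21, −0.07 and 0.40, and 2 of 6 tumors correlated best with their own number. With so few tumors this cannot exclude pairing.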

Other observations

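The class I pathway, which shows peptides of the cell's own proteins to CD8 T cells and has its own co-activator *Nlrc5*, was measured by 7 genes. Of these, 4 were called higher and 0 lower by limma, with 0 lower at an unadjusted p under 0.05 and a median log2 fold change of 0.65. The heavy chain gene *H2-K1* read 555, 382 and 432 FPKM in ACT + IL-2 and 997, 1126 and 932 FPKM in ACT + NKTR-214, with no overlap and a log2 fold change of 1.17 (SE 0.26; limma, Benjamini-Hochberg adjusted p = 0.00304). *H2-D1*, the other heavy chain, was at 1.10 (SE 0.26), the peptide transporter chain *Tap2* at 0.65 (SE 0.15) and the loading factor *Tapbp* at 0.58 (SE 0.18), whose call was lost without ACT + IL-2 replicate 2 or 3 or ACT + NKTR-214 replicate 2. *Tap1*, the partner of *Tap2*, was not called, at 0.25 (SE 0.17; limma, Benjamini-Hochberg adjusted p = 0.288), with overlapping groups. *B2m*, the light chain, was not called, with a log2 fold change of 0.65 (SE 0.34; limma, Benjamini-Hochberg adjusted p = 0.174). *Nlrc5*, named like *Tap1* after its value was seen, read 35.2, 33.2 and 35.9 FPKM against 39.6, 38.9 and 40.3 FPKM. Its groups did not overlap, but the log2 fold change was 0.18 (SE 0.14; limma, Benjamini-Hochberg adjusted p = 0.351), so that neither *Nlrc5* nor *Ciita* was called. Whether their changes differed from those of the other genes of their pathways was not tested.

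*Cd74* also serves as the receptor of MIF, together with CD44, CXCR2 and CXCR4. Besides *Cd74*, 4 genes were looked at: *Mif*, *Cd44*, *Cxcr2* and *Cxcr4*. With limma, *Cxcr4* (log2 fold change 1.54, SE 0.24) and *Cxcr2* (0.55, SE 0.11, from 0.0432 to 0.180 FPKM to between 0.360 and 0.838 FPKM) were called higher. *Mif* (−0.18, SE 0.17) and *Cd44* (−0.16, SE 0.16) were not called, and both overlapped between groups.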
